A study of Glycine max with 20 samples.

Results

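TIFY and lipoxygenase genes include the repressors of jasmonate signalling and the enzymes that start jasmonate synthesis, beside members with other roles. They were selected from the soybean Glyma models as those annotated with a TIFY domain or a lipoxygenase domain, with Glyma.10G244400 and Glyma.20G150000 set aside. For each gene the splice form with the highest mean RPKM over the 20 libraries was kept. This gave 91 genes of the 56044 in the data, 36 with a TIFY domain and 55 with a lipoxygenase domain.

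Lipoxygenases add oxygen to polyunsaturated fatty acids. In Arabidopsis, LOX2, LOX3, LOX4 and LOX6 oxidise the carbon that feeds jasmonate synthesis, while LOX1 and LOX5 act at another carbon of the chain and feed other oxylipins. The hormone conjugate jasmonoyl-isoleucine brings the F-box receptor COI1 and the JAZ proteins together, and the JAZ repressors are then degraded, which frees MYC2 and related factors. JAZ genes are themselves induced by jasmonate in Arabidopsis, and soybean seeds are a classical source of abundant lipoxygenase protein.

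RNA was taken from the extended hilum region (EH), a seed coat section with the hilum and the tissue next to it, and from whole seed coats (WS). The standard isoline UC7 (Clark 63) carries ii R T Mi g. UC413, the isoline with the minute hilum, was made by repeated backcrossing to Clark 63 and carries ii R t mi G, so that the isolines differ at T and G as well as at Mi and may differ in linked segments. All plants grew in a greenhouse and carried ii and R. Each isoline had 2 libraries of the extended hilum region at EH10 (seeds of 10 to 25 mg), EH25 (25 to 50 mg) and EH50 (50 to 100 mg), described by the study as independent replicates. EH100 (100 to 200 mg) and the whole seed coat stages WS10, WS25 and WS50 had 1 library for each isoline, and values from these single libraries are given with no test.

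The libraries held 9.18e+07 to 1.29e+08 alignments. Levels are given as scaled RPKM, which is RPKM over the size factor of its library, and 3 alignments to a model of 1 kb are worth 0.0233 to 0.0327 RPKM. Size factors were 0.574 to 1.02 in the UC7 libraries of EH10 to EH50 and 1.15 to 1.24 in those of UC413. In the same libraries models of the rDNA region took 3.80% to 44.4% of the alignments in UC7 and 0.386% to 1.03% in UC413. The 10 seed coat markers summed to 507 to 980 scaled RPKM. The 21 embryo markers summed to 4.90 to 8.12 at EH10, to 25.1 and 58.3 (UC7) and 9.45 and 19.2 (UC413) at EH25, to 61.3 and 90.3 (UC7) and 44.4 and 55.9 (UC413) at EH50, and to 758 (UC7) and 242 (UC413) at EH100. The LEC1 homolog among them had no alignment in any library. Differences are in log2 of scaled RPKM plus 0.25, which understates changes of low genes, and a gene is called where the adjusted p of limma is under 0.05. In dissected tissue, fewer cells of a type and less RNA per cell cannot be told apart.

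The TIFY genes were of 4 kinds by domain and best Arabidopsis hit. There were 22 JAZ genes, 9 GATA-type ZIM genes, which encode zinc finger factors of the ZIM and ZML group, 3 homologs of TIFY8 and 2 lipase-like genes with a TIFY domain. Of the 36, 27 passed the filter on low values in the extended hilum libraries, 14 of the JAZ genes and all 9 of the GATA type included. The most abundant was the JAZ12 homolog Glyma.09G077500.2, with 40.4 to 123 scaled RPKM over the 20 libraries and a mean of 67.6. Another JAZ12 homolog, Glyma.15G184900.1, followed with a mean of 22.8. Next were the JAZ3 homolog Glyma.08G043000.2 with 17.3, the JAZ1 homolog Glyma.15G179600.1 with 14.5 and the GATA25 (ZIM) homolog Glyma.06G097900.1 with 14.2. The last of these hardly varied, from 12.4 to 17.7, while Glyma.15G179600.1 ranged from 6.72 to 60.5.

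The lipoxygenase genes were mostly homologs of LOX1, with 30 of 55. There were 7 LOX2, 6 LOX3, 4 LOX4, 6 LOX5 and 1 LOX6 homologs, and 1 gene whose best hit was no lipoxygenase. After the filter 27 remained, namely 20 of the LOX1 type, 4 of LOX2, 2 of LOX3 and 1 of LOX6. A further 26 genes stayed below a deposited RPKM of 1 in every library, among them all LOX4 and LOX5 homologs, and 3 of these had no alignment at all. LOX1-type transcripts made up most of the lipoxygenase signal. Glyma.07G034800.1 alone, with 51.1 to 503 scaled RPKM and a mean of 228, took 22.2% to 55.8% of the summed level of the 55 genes in a library. The next were Glyma.15G026400.2 with a mean of 59.9, Glyma.10G153900.1 with 44.5, Glyma.20G234400.1 with 35.0 and Glyma.13G347800.1 with 33.0. The homologs of the jasmonate-type enzymes were far lower per length, with a highest mean of 10.2 for the LOX3 homolog Glyma.07G039900.1 and 3.93 for the LOX2 homolog Glyma.20G053700.1.

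At EH10 a subset of the JAZ genes was higher in the minute hilum isoline. Of the 27 tested TIFY genes 5 were called higher in UC413 and 0 in UC7, where 3.42% and 3.41% of all tested genes were called in these directions. All 5 were JAZ genes, with homologs of JAZ3, JAZ6 and JAZ12 and none of JAZ1. The median log2 difference of the TIFY genes was 0.03, against -0.08 over all genes. At EH25 only Glyma.07G041400.1 was called higher in UC413, beside a background of 1.41%, and 0 were called higher in UC7 (1.14%). At EH50, 0 were called higher in UC413 (3.45%) and 1 in UC7 (4.83%). With no adjustment, p was under 0.05 for 6, 6 and 1 TIFY genes higher in UC413 and for 0, 1 and 2 higher in UC7 at EH10, EH25 and EH50.

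**Figure D1:**
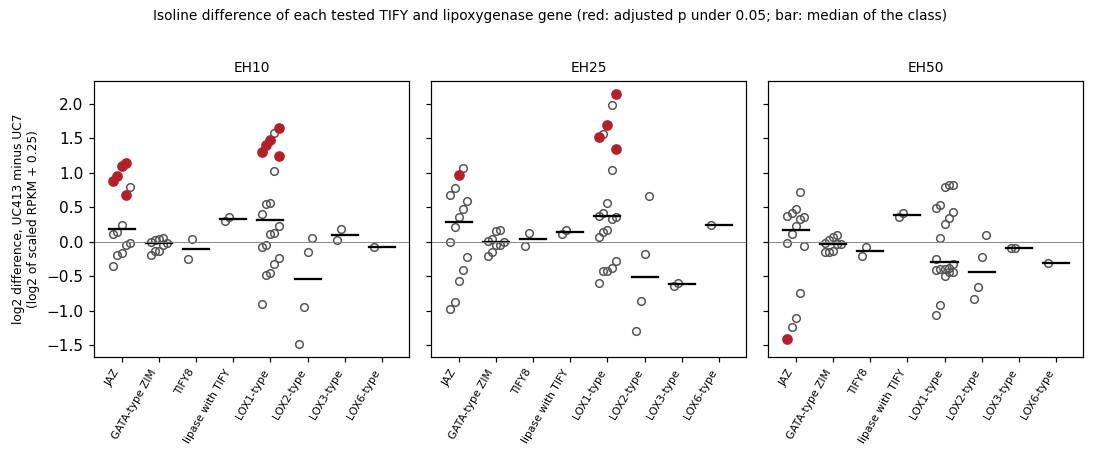
Log2 difference of UC413 minus UC7 (vertical axis) for each tested gene in the extended hilum region, by class (horizontal axis) and stage (panels); filled red points passed an adjusted p of 0.05 and bars are class medians. Called genes lie in the JAZ and LOX1-type classes, and the GATA-type ZIM genes stay between -0.21 and 0.18.

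The JAZ3 homolog Glyma.05G235500.2 had the smallest adjusted p. At EH10 it had 6.86 and 4.74 scaled RPKM in UC7 and 11.3 and 11.3 in UC413. The UC413 libraries lay above those of UC7 by a log2 difference of 0.95 (SE 0.16, adjusted p = 0.0107 by limma). It remained higher in both UC413 libraries at EH25 (7.92 and 7.53 in UC7, 11.4 and 12.1 in UC413) and at EH50 (9.16 and 10.2 in UC7, 13.2 and 11.7 in UC413), where it was not called. Another JAZ3 homolog, Glyma.08G043000.2, had 13.8 and 9.25 in UC7 and 19.3 and 17.3 in UC413 at EH10. Its log2 difference of 0.68 (SE 0.17) passed the threshold narrowly, with an adjusted p of 0.0498 by limma. The remaining JAZ3 homologs overlapped between the isolines at EH10. Glyma.09G123600.1 had 9.53 and 8.53 in UC7 and 9.38 and 8.15 in UC413. Glyma.09G174200.3 had 0.929 and 0.673 in UC7 and 0.886 and 0.914 in UC413.

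The less abundant JAZ12 homologs differed more in proportion, although they were lower. Glyma.17G043700.1 had 4.17 and 3.03 in UC7 and 8.44 and 7.32 in UC413 at EH10, a log2 difference of 1.09 (SE 0.20, adjusted p = 0.0152 by limma). Glyma.13G116100.1 had 0.922 and 0.538 in UC7 and 1.99 and 1.75 in UC413, a log2 difference of 1.14 (SE 0.26, adjusted p = 0.0340 by limma). In each case the groups did not overlap. The abundant JAZ12 homologs did not follow them. Glyma.09G077500.2 had 60.6 and 59.3 in UC7 and 50.5 and 57.3 in UC413 at EH10.

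The JAZ6 homolog Glyma.07G041400.1 was the 1 TIFY gene called at more than 1 stage. At EH10 it had 7.06 and 4.50 in UC7 and 10.2 and 11.03 in UC413 (log2 difference 0.88, SE 0.21, adjusted p = 0.0377 by limma), and at EH25 8.10 and 6.08 against 15.4 and 12.7 (0.97, SE 0.21, adjusted p = 0.0440). At EH50 it had 10.3 and 9.72 in UC7 and 17.2 and 16.1 in UC413. At EH100 the single libraries had 23.2 in UC7 and 21.9 in UC413. Both UC413 libraries lay above both UC7 libraries at each of these stages up to EH50, where the difference was not called, and the EH100 libraries were close.

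**Figure D2:**
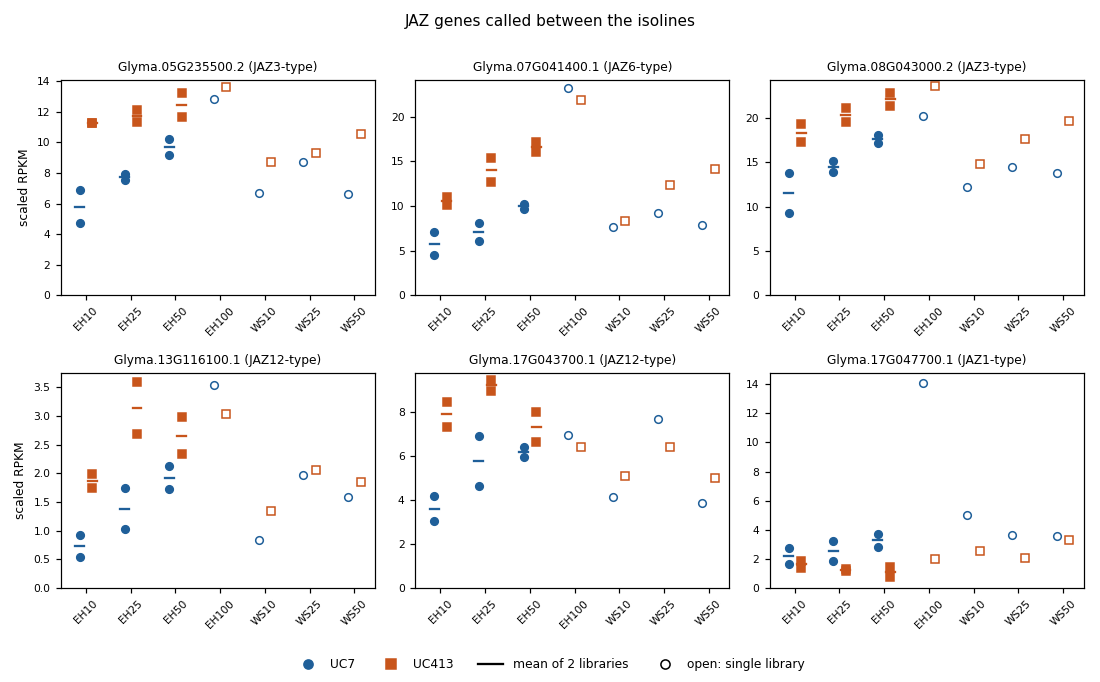
Scaled RPKM (vertical axis, from 0) of the 6 JAZ genes called between the isolines, for each library by region and stage (horizontal axis); circles are UC7, squares are UC413, bars are means of 2 libraries, and open symbols are single libraries. At EH10 both UC413 libraries lie above both UC7 libraries in the 5 genes called at that stage, which were chosen by these same values. Glyma.17G047700.1 is at 14.1 in UC7 and 1.98 in UC413 at EH100.

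The opposite direction was found for the JAZ1 homolog Glyma.17G047700.1 at EH50. It had 2.85 and 3.69 in UC7 and 0.792 and 1.43 in UC413, a log2 difference of -1.40 (SE 0.32, adjusted p = 0.0295 by limma). Another JAZ1 homolog, Glyma.13G112000.1, had 3.24 and 2.75 in UC7 and 0.878 and 1.40 in UC413 and missed the threshold with an adjusted p of 0.0530.

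Every leave-out of a single library kept the direction of these 7 JAZ calls. It could hardly turn, as the UC7 and UC413 libraries of the stage did not overlap in any of them. The calls themselves were less stable, since a group has only 2 libraries. All 5 calls at EH10 were lost without UC413 EH10 replicate 1 and without replicate 2, and 1 of 5 remained without UC7 EH10 replicate 2, with 2 to 4 left without the others that mattered (UC7 EH10 replicate 1, both EH50 libraries of UC7, and the EH25 and EH50 libraries of UC413). For the call at EH25 the log2 difference was 0.77 to 1.17 and the adjusted p 0.0231 to 0.170 in the 12 leave-outs, and it was kept in 3 of them, those without either UC7 EH10 library or without UC7 EH25 replicate 1. For that at EH50 they were -1.75 to -1.06 and 0.0171 to 0.180, and the call was lost without UC413 EH50 replicate 1 or either UC7 EH50 library. With RPKM as deposited 23 TIFY genes were called higher in UC413 at EH10, and this scaling shifted the median of all genes to 0.65 from -0.08, so differences here are relative to the median after scaling. All 7 calls held under RPKM as deposited and under an equal sum outside the rDNA region. Of the 5 calls at EH10, 4 remained with a pseudocount of 1 and with limma-voom, 3 with no filter, 3 with the kit as a covariate and 2 with stranded libraries only. The call at EH25 was lost under the last 3 of these settings, and that of Glyma.17G047700.1 at EH50 with no filter and with stranded libraries only. The share of the rDNA models, which differed most between the isolines at EH10, was not otherwise tested for its part in these differences.

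Lipoxygenase genes showed a similar count and larger differences. At EH10, 5 of 27 were called higher in UC413 (background 3.42%) and 0 in UC7 (3.41%). The next stage, EH25, had 4 higher in UC413 (1.41%) and 0 in UC7 (1.14%). EH50 had 0 in either isoline (3.45% and 4.83%), where 1 gene in each direction had an unadjusted p under 0.05 and limma-voom also called 0. All 5 genes were LOX1 homologs. Of these, Glyma.16G096200.1, Glyma.05G098600.1 and Glyma.15G233300.1 stayed under a deposited RPKM of 1 in every UC7 library of EH10 to EH50. Glyma.04G105500.1 reached it there only in UC7 EH25 replicate 2 (1.08). These models passed the filter on low values through the UC413 libraries and could hardly be called higher in UC7. The counts beside the backgrounds are therefore no support for a direction. The median over the 27 was 0.11, 0.24 and -0.25 at the 3 stages. No LOX2, LOX3 or LOX6 homolog was called at any stage. The nearest was the LOX2 homolog Glyma.20G053700.1, with 4.03 and 2.50 in UC7 and 1.36 and 0.684 in UC413 at EH10 (log2 difference -1.49, SE 0.39, adjusted p = 0.0522 by limma).

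The 1 full-length gene among the called was Glyma.07G006900.1, a model of 2919 bases with the PLAT domain that lipoxygenases carry in front of the catalytic domain. It had 7.13 and 4.32 scaled RPKM in UC7 and 15.1 and 13.1 in UC413 at EH10 (log2 difference 1.30, SE 0.22, adjusted p = 0.00950 by limma). At EH25 it had 6.06 and 7.88 in UC7 and 18.5 and 17.3 in UC413 (1.34, SE 0.22, adjusted p = 0.0144). The groups lay apart at both stages. At EH50 the values were 6.53 and 7.61 in UC7 and 9.72 and 10.9 in UC413. The single libraries of WS10 had 7.52 in UC7 and 18.6 in UC413.

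The other 4 called models were short, of 483 to 777 bases, and had no PLAT domain. Glyma.16G096200.1 had 0.812 and 0.317 in UC7 and 2.60 and 1.83 in UC413 at EH10 (log2 difference 1.65, SE 0.39), and 0.189 and 0.521 in UC7 against 2.22 and 2.42 in UC413 at EH25 (2.14, SE 0.39, adjusted p = 0.0229 by limma). Glyma.04G105500.1 had 1.55 and 0.937 in UC7 and 3.56 and 4.04 in UC413 at EH10 (1.47, SE 0.30), and 0.507 and 1.24 against 2.86 and 3.57 at EH25 (1.70, SE 0.30, adjusted p = 0.0212). Glyma.15G233300.1 was called at both stages (1.24 and 1.52) and Glyma.05G098600.1 at EH10 (1.41). Each of the 4 reached no more than 4.04 scaled RPKM in any library.

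These short models went up and down together. Over the 20 libraries the log2 levels of Glyma.04G105500.1, Glyma.05G098600.1, Glyma.14G173500.1, Glyma.15G233300.1 and Glyma.16G096200.1 had pairwise Pearson correlations of 0.93 to 0.99, although they lie on 5 chromosomes. The closest longer member to each of them was Glyma.07G006900.1, with 0.83 to 0.87. Glyma.14G173500.1 was not called (log2 difference 1.57, SE 0.47, adjusted p = 0.0807 at EH10). A pair of other short models tracked abundant genes instead, Glyma.20G234400.1 with Glyma.10G153900.1 (0.96) and Glyma.04G105900.1 with Glyma.15G026500.1 (0.95). The points of these correlations are the same libraries, and a read was counted in every model to which it aligned. Counts of near-identical copies and fragments are therefore uncertain, and the 4 short models may not be independent measurements.

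**Figure D3:**
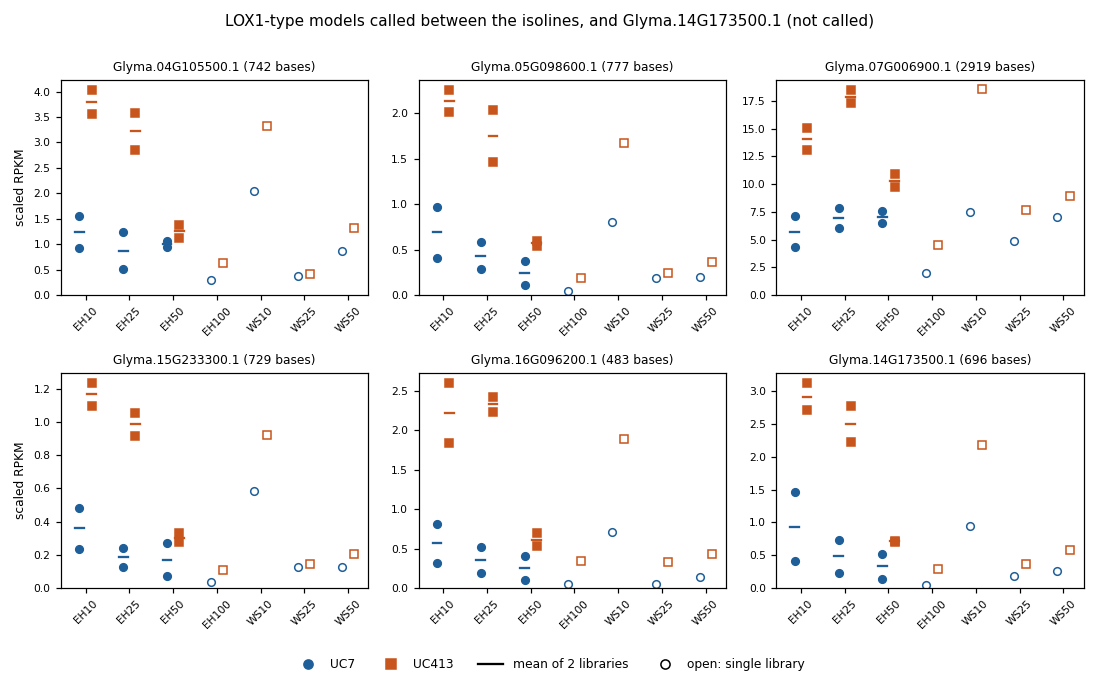
Scaled RPKM (vertical axis, from 0) of the 5 LOX1-type models called between the isolines and of Glyma.14G173500.1, for each library by region and stage (horizontal axis), with symbols as in the plot of JAZ genes. At EH10 and EH25 both UC413 libraries lie above both UC7 libraries in all 6 panels, whose models were chosen with these values known. At EH100 the models are at 0.0377 to 4.56.

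The direction of all 9 lipoxygenase calls held in each leave-out. It could hardly turn, as the UC7 and UC413 libraries of the stage did not overlap in any of them. The number of calls did not hold. At EH10 0 of 5 remained without either UC413 EH10 library, 1 without either UC7 EH10 library, and 2 without any 1 of the UC413 libraries of EH25 and EH50. At EH25 0 of 4 remained without either UC413 EH25 library, 1 without UC7 EH25 replicate 1 and 3 without any 1 of the UC413 libraries of EH10 and EH50. All libraries of EH10 and EH25 were made with the stranded kit, but the fit shares its estimate of spread with EH50. With stranded libraries only 1 of 5 calls remained at EH10 and 2 of 4 at EH25, and with the kit as a covariate 4 of 5 and 4 of 4. With no filter 3 of 5 remained at EH10, and with limma-voom 4 of 5 at EH10 and 3 of 4 at EH25.

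Between EH25 and EH50 several lipoxygenases of UC413 fell. In UC413, 7 of 27 were called lower at EH50 (background 3.76%) and 1 higher (2.32%), all LOX1 homologs, and the median log2 change of the 27 was -0.80, against 0.01 over all genes. From EH10 to EH50 the 1 higher, Glyma.13G347500.1, reached a deposited RPKM of 1 only in the EH50 libraries. Among the 7 lower, Glyma.16G096200.1 reached it only in the UC413 libraries of EH10 and EH25. Each passed the filter only through libraries where it was high, so its direction was all but fixed. In UC7 0 were called in either direction (backgrounds 0.844% lower and 0.499% higher), where 4 had an unadjusted p under 0.05 as lower and 3 as higher, and the median was -0.28. From EH10 to EH25 0 were called in UC7 (0.00948% lower, 0.196% higher) or in UC413 (0% and 0%), with 4 higher in UC7 and 1 in UC413 at an unadjusted p under 0.05. The isoline difference changed between EH25 and EH50 for 0 lipoxygenases and 0 TIFY genes, as for 0% of all genes, and 4 lipoxygenases had an unadjusted p under 0.05 for it, so a larger fall in UC413 than in UC7 was not shown.

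Glyma.15G026400.2, the second most abundant, had 91.4 and 82.3 scaled RPKM in UC413 at EH25 and 31.3 and 36.5 at EH50 (log2 change -1.35, SE 0.30, adjusted p = 0.0303 by limma). Glyma.13G347800.1 had 53.7 and 42.1 at EH25 and 14.6 and 18.3 at EH50 (-1.53, SE 0.28, adjusted p = 0.0150). In UC7 the same genes had 54.0 and 77.5, then 33.9 and 59.0, and 32.2 and 42.5, then 16.5 and 28.4. The UC7 values also point down, with overlap of the libraries for Glyma.15G026400.2. The largest fall was that of the short model Glyma.04G105900.1, from 8.79 and 6.12 to 1.55 and 1.88 (-1.95, SE 0.37, adjusted p = 0.0164). The top gene Glyma.07G034800.1 had 235 and 297 at EH25 and 79.9 and 147 at EH50 in UC413 (-1.29, SE 0.43, adjusted p = 0.119), which did not pass.

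The direction of the 8 calls held in all leave-outs, but 0 of 8 remained without UC413 EH25 replicate 1 or without UC413 EH50 replicate 1, 2 without UC413 EH50 replicate 2, 3 without UC413 EH25 replicate 2, 5 without either UC413 EH10 library, and 7 without any 1 of the UC7 libraries of EH10 and EH50. The direction could hardly turn, as the UC413 values of EH25 and EH50 did not overlap for any of the 8. At EH50, replicate 1 of both isolines was made with the non-stranded kit. With the kit as a covariate 2 of the 8 calls remained, and with stranded libraries only, an alternative chosen after seeing the data, 0 remained, with all 8 in the same direction. The stranded UC413 library of EH50 had the smaller fall in 6 of the 7 that fell, for example to 18.3 against 14.6 for Glyma.13G347800.1. The embryo marker sum in UC413 was 9.45 and 19.2 at EH25 and 44.4 and 55.9 at EH50, and its part in the fall was not tested. The sum of the 10 seed coat markers in UC413 was 680 and 722 at EH25 and 542 and 507 at EH50. Single markers took different courses over this step. Glyma.08G062000.2 (BAN) went from 184 and 127 to 6.68 and 10.8, and Glyma.14G032400.1 (TT12) from 40.7 and 31.4 to 0.909 and 1.79. Glyma.04G257100.8 (STK) went from 193 and 217 to 227 and 199, and Glyma.19G254600.1 (BAN) from 1.34 and 1.60 to 2.86 and 1.95. How these marker values relate to the fall of the lipoxygenases was not tested.

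The Glyma numbers follow the order of genes along a chromosome, and 26 of the 55 lipoxygenase genes lie in 7 runs of consecutive numbers. Genes of a run could take opposite courses. On chromosome 13 Glyma.13G347500 to Glyma.13G347800 form a run of 4 LOX1 homologs. Glyma.13G347500.1 had 0.0173 to 0.0664 scaled RPKM in the 4 libraries of EH10, then 0.202 and 0.188 at EH25 and 2.03 and 1.27 at EH50 in UC413 (log2 change 2.06, SE 0.44, adjusted p = 0.0266 by limma). In UC7 it went from 0.652 and 0.145 to 3.66 and 1.51 (2.14, SE 0.44, adjusted p = 0.0541). The single EH100 libraries had 21.0 in UC7 and 11.5 in UC413. Glyma.13G347600.2, which had at most 0.552 up to EH50, had 13.1 in UC7 and 5.41 in UC413 at EH100.

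The next 2 genes of the run moved the other way. Glyma.13G347700.1 fell from 12.7 and 10.6 at EH25 to 3.59 and 4.50 at EH50 in UC413 (-1.47, SE 0.25, adjusted p = 0.01001), and the EH100 libraries had 0.817 in UC7 and 1.15 in UC413. Glyma.13G347800.1, described above, had 3.34 in UC7 and 4.99 in UC413 at EH100. The run of 3 on chromosome 15 looked alike. Glyma.15G026300.1 went from 1.54 and 1.57 at EH25 to 2.91 and 3.24 at EH50 in UC413 (0.88, SE 0.26, adjusted p = 0.0798, not called) and had 30.4 (UC7) and 13.2 (UC413) at EH100. Its neighbours Glyma.15G026400.2 and Glyma.15G026500.1 had 8.20 and 1.23 in UC7 and 11.5 and 2.21 in UC413 at EH100. Counted against the mean of EH50 with a 2-fold limit, over the genes kept by the filter on EH10 to EH50, 2 of 27 lipoxygenases were higher and 11 lower at EH100 in UC7 (backgrounds 4.75% and 5.23%), and 3 and 7 of 27 in UC413 (0.939% and 2.11%). The embryo marker sum reached 758 in UC7 and 242 in UC413 at this stage, and its part in these values was not tested. The run of 8 LOX1 homologs on chromosome 8, Glyma.08G189100 to Glyma.08G189800, was nearly silent, with only Glyma.08G189200.1 above the filter (0.468 to 2.37).

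**Figure D4:**
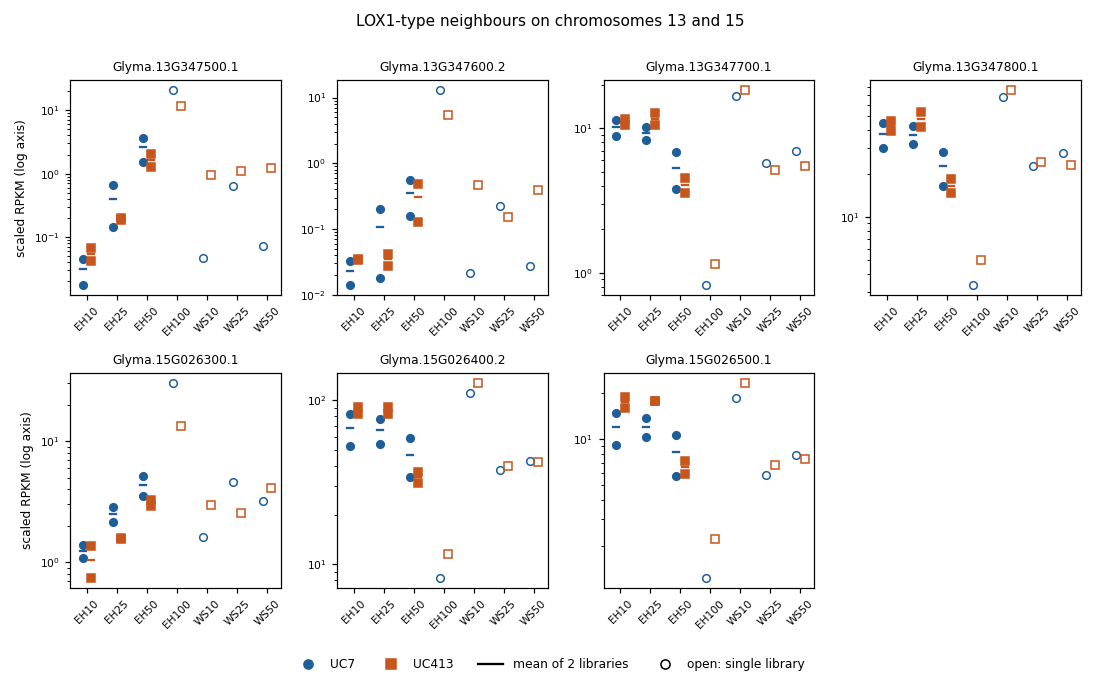
Scaled RPKM (vertical axis, log scale) of neighbouring LOX1-type genes on chromosomes 13 (4 genes) and 15 (3 genes), for each library by region and stage, with symbols as in the plot of JAZ genes. At EH100 Glyma.13G347500.1, Glyma.13G347600.2 and Glyma.15G026300.1 are at their highest, from 5.41 to 30.4, and the other 4 at their lowest.

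In the fit without a replicate block, limma called 0 TIFY genes in any stage step. The counts at an unadjusted p under 0.05 were 3 higher in UC7 and 1 in UC413 from EH10 to EH25, and 4 higher and 1 lower in UC7 and 6 higher and 2 lower in UC413 from EH25 to EH50. limma-voom called 1 in UC413 from EH25 to EH50. The GATA-type ZIM genes had a narrow range, with a summed level of the 9 genes from 53.8 to 74.7 scaled RPKM over the 20 libraries. The JAZ12 homolog Glyma.09G077500.2 had 50.4 and 63.4 at EH25 and 97.5 and 86.2 at EH50 in UC7 (log2 change 0.70, SE 0.19, adjusted p = 0.131) and 49.2 and 64.0, then 95.0 and 86.3, in UC413 (0.69, SE 0.19, adjusted p = 0.0641). The values of the 2 stages did not overlap in either isoline, and the step did not pass.

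At EH100, where only 1 library of each isoline can be compared, 4 JAZ1 homologs were lower in the UC413 library. Of the 27 TIFY genes kept by the filter on EH10 to EH50, which does not use the EH100 libraries and was applied here after seeing the data, 4 were at least 2-fold lower in UC413 (background 5.69%) and 0 higher (1.90%), and all 4 were JAZ1 homologs. Among the 27 lipoxygenases 3 were lower and 1 higher. The JAZ1 homologs Glyma.15G179600.1 and Glyma.09G071600.4 had 60.5 and 48.8 scaled RPKM in UC7 and 15.9 and 10.7 in UC413. Glyma.13G112000.1 had 19.2 and 1.98, and Glyma.17G047700.1 14.1 and 1.98. A further 4 JAZ genes that failed the filter reached an RPKM of 1 only in the UC7 EH100 library, so that they had to differ, and are given as values alone. The JAZ2 homologs Glyma.01G204400.1 and Glyma.11G038600.2 had 12.97 and 6.07 in UC7 and 0.522 and 0.509 in UC413. The JAZ8 homologs Glyma.13G219100.1 and Glyma.15G093100.1 had 0.0427 and 0.0728 in UC413 and 1.12 and 1.13 in UC7.

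The JAZ genes called higher in UC413 at EH10 were alike in the EH100 libraries. Glyma.05G235500.2 had 12.8 in UC7 and 13.6 in UC413, and Glyma.08G043000.2 20.2 and 23.6. Against the mean of EH50, 6 of 27 TIFY genes were 2-fold higher at EH100 in UC7 (background 4.75%) and 0 of 27 in UC413 (0.939%), and 0 were 2-fold lower in either (5.23% and 2.11%). The summed level of the 22 JAZ genes was 432 scaled RPKM in UC7 and 271 in UC413 at EH100, against 219.9 to 234 in the 4 libraries of EH50. The embryo markers were 758 and 242 in these same EH100 libraries, and their part was not tested. With no replicate, library and isoline cannot be told apart.

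**Figure D5:**
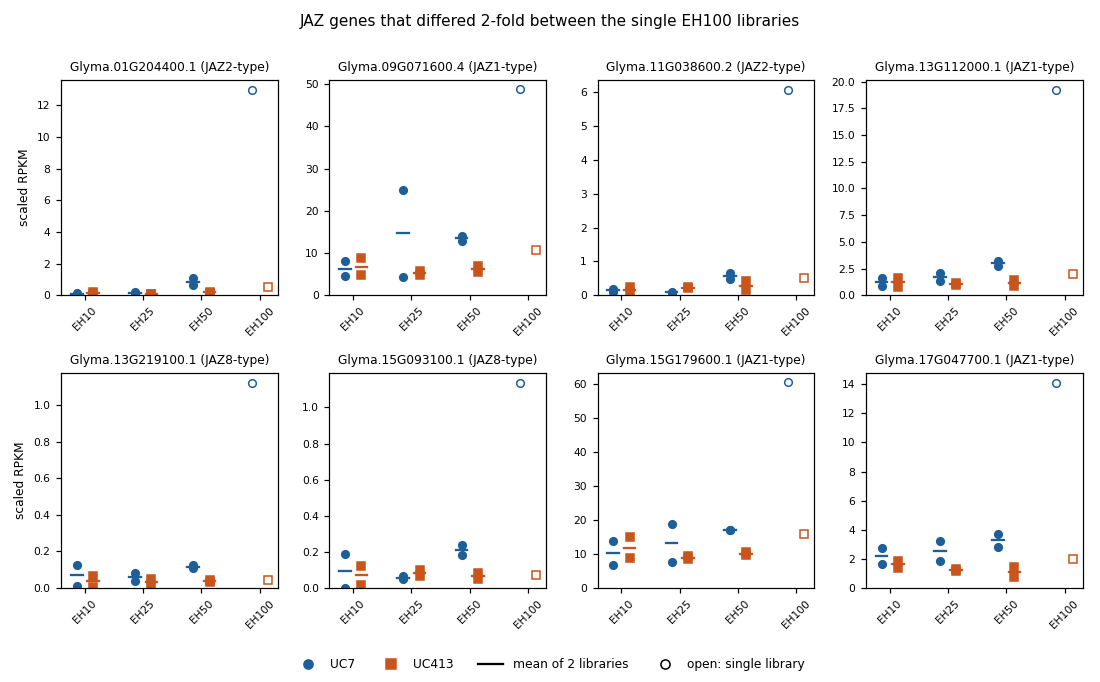
Scaled RPKM (vertical axis, from 0) of the 8 JAZ genes that differed 2-fold between the single EH100 libraries, 4 of them below the filter on EH10 to EH50, over the extended hilum stages (horizontal axis); circles are UC7, squares UC413, bars means of 2 libraries and open symbols single libraries. The UC7 EH100 library lies above all other extended hilum libraries in each panel, at 1.12 to 60.5.

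The extended hilum was compared with the whole seed coat by the mean over 3 stages in each isoline, with 1 WS library a stage. In UC7, 4 of 28 TIFY genes were called higher in EH (background 14.4%) and 1 in WS (9.56%), and among 27 lipoxygenases 0 and 1. In UC413, 1 TIFY gene was called higher in EH (6.52%) and 1 in WS (5.04%), and 0 and 2 lipoxygenases. These shares are near or under the background. The isoline difference in this region effect was called for 0 of 28 TIFY genes and 0 of 27 lipoxygenases, beside 0.0303% and 0.0212% of all genes, with 3 TIFY genes more and 1 lipoxygenase less in UC413 at an unadjusted p under 0.05.

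The LOX2 homolog Glyma.11G130300.1 was lower in EH than in WS in both isolines. In UC7 it had 0.252 to 1.30 scaled RPKM in the 6 EH libraries and 4.72, 2.14 and 2.81 in WS10, WS25 and WS50 (log2 difference -1.67, SE 0.40, adjusted p = 0.0118 by limma). In UC413 it had 0.286 to 1.80 in EH and 3.87, 3.25 and 2.38 in WS (-1.48, SE 0.40, adjusted p = 0.0331). The EH and WS values did not overlap. The TIFY8 homolog Glyma.04G071400.1 was the 1 gene called higher in EH in both isolines (0.51 in UC7 and 0.45 in UC413, SE 0.12 each, adjusted p = 0.0107 and 0.0306), and neither call held with RPKM as deposited. The JAZ3 homolog Glyma.09G174200.3 was lower in EH in UC7 (-0.70, SE 0.14, adjusted p = 0.00585), where it had 0.268 to 0.929 in EH and 1.77, 1.04 and 0.574 in WS. In UC413 the JAZ1 homolog Glyma.17G047700.1 (-0.88, SE 0.24, adjusted p = 0.0351) and the LOX1 homolog Glyma.15G026300.1 (-0.79, SE 0.23, adjusted p = 0.0455) were lower in EH.

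The calls higher in EH in UC7 depended on scaling. Glyma.09G077500.2 (log2 difference 0.56, SE 0.12, adjusted p = 0.00759) had 0.13 with RPKM as deposited, Glyma.04G071400.1 0.10, and Glyma.06G072700.1 and Glyma.15G184900.1 turned to -0.11 and -0.02 from 0.30 and 0.40. Those higher in WS kept their call in UC7 under this scaling. With an equal sum outside the rDNA region the calls of Glyma.04G071400.1, Glyma.06G072700.1 and Glyma.15G184900.1 in UC7 were lost as well, and 2 of 5 remained. Leaving out UC7 WS50 reduced the 5 TIFY calls in UC7 to 1, leaving out UC7 WS25 to 2, and leaving out replicate 1 of UC7 EH10 or EH50 to 4. The lipoxygenase call in UC7 was lost without WS10 or WS50. In UC413 both TIFY calls were lost without any 1 of the 3 WS libraries, UC413 EH25 replicate 2 or UC413 EH50 replicate 1. There 0 of the 2 lipoxygenase calls remained without any 1 of the 3 WS libraries, either UC413 EH10 library, UC413 EH25 replicate 2 or UC413 EH50 replicate 1. With stranded libraries only, 0 of these 10 calls remained and all kept their direction.

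In whole seed coats the single libraries gave few differences of 2-fold. Genes with an RPKM of 1 or more in either library were counted, so that a gene that reached it in 1 library only had to be low in the other, as were Glyma.13G347500.1 at WS10 and WS50, Glyma.16G096200.1 at WS10, Glyma.13G030300.2 at WS25 and Glyma.08G096500.1 at WS50. At WS10, 4 of 26 lipoxygenases were higher in UC413 (background 1.07%) and 1 lower (1.88%), and 0 of 27 TIFY genes in either direction. Among the 4 were Glyma.07G006900.1, already given, and the short models Glyma.14G173500.1 (0.939 in UC7 and 2.17 in UC413) and Glyma.16G096200.1 (0.714 and 1.89), and the fourth was Glyma.13G347500.1 (0.0460 and 0.969). At WS25, 3 of 22 lipoxygenases and 2 of 28 TIFY genes were lower in UC413 (6.72%) and 0 of either higher (1.02%). At WS50, 1 of 22 lipoxygenases and 1 of 27 TIFY genes were higher (2.94%) and 0 lower (2.45%).

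Other genes of the jasmonate pathway were listed by their best Arabidopsis hit. Of 26 tested genes of jasmonate synthesis after the lipoxygenase step, 2 were called higher in UC413 for EH10 (background 3.42%), 0 for EH25 (1.41%) and 2 for EH50 (3.45%), and 0 in UC7 (3.41%, 1.14% and 4.83%). At an unadjusted p under 0.05 there were 6, 5 and 4 higher in UC413 and 1, 0 and 2 lower. The genes called at EH10 and at EH50 were the same pair, homologs of PXA1, the importer of jasmonate precursors into peroxisomes. Glyma.05G178900.2 had 3.31 and 3.47 scaled RPKM in UC7 and 5.68 and 5.57 in UC413 at EH10 (log2 difference 0.69, SE 0.13, adjusted p = 0.0161 by limma). At EH50 it had 5.39 and 5.10 against 8.19 and 7.90 (0.59, SE 0.13, adjusted p = 0.0277). Glyma.08G136400.1 followed with 0.61 and 0.63. None of the tested homologs of allene oxide synthase, allene oxide cyclase or OPDA reductase was called between the isolines.

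Of 23 tested genes for conjugation and turnover of the hormone, 0 were called lower in UC413 for EH10 (background 3.41%), 1 for EH25 (1.14%) and 2 for EH50 (4.83%), and 0 higher (3.42%, 1.41% and 3.45%). At an unadjusted p under 0.05 there were 4, 3 and 5 lower and 2, 3 and 2 higher. Glyma.19G162100.1, a homolog of CYP94B1, which hydroxylates jasmonoyl-isoleucine, had 3.02 and 1.54 in UC7 and 0.766 and 0.385 in UC413 at EH25 (-1.59, SE 0.33, adjusted p = 0.0394 by limma), and 1.88 and 1.36 against 0.331 and 0.450 at EH50 (-1.54, SE 0.33, adjusted p = 0.0255). Glyma.12G087200.1, a homolog of CYP94C1, which oxidises the hydroxylated conjugate, had 1.37 and 2.54 against 0.0865 and 0.169 at EH50 (-2.50, SE 0.54, adjusted p = 0.0271). In the EH100 libraries the CYP94B1 homolog had 8.02 in UC7 and 0.950 in UC413, and the CYP94C1 homolog 6.41 and 0.641. Of 19 tested genes for perception and signalling, with homologs of COI1, NINJA and MYC2, 0 were called between the isolines at any stage, beside the same backgrounds, at which so short a list can hold 0 calls, with 6, 5 and 2 lower and 0 higher in UC413 at an unadjusted p under 0.05 at EH10, EH25 and EH50, and neither was the 1 hydroperoxide lyase homolog.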

How the data were processed

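RNA-Seq libraries from extended hilum and whole seed coat tissue of both isolines were analysed at the level of Glyma gene models. The deposited values are RPKM, made by the authors with the first Bowtie program (its release is not given in the sources used here) by aligning reads to the model set allowing 3 mismatches and at most 25 alignments for a read, so that paralogs and splice forms share reads. RPKM times model length gave whole alignments for 100% of values (tolerance 0.01), and a floor of 3 alignments covers counting error only.

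RPKM was divided by median-of-ratios size factors and tested as log2(value + 0.25) in limma (version 3.58.1, under R 4.3.3, with files read by data.table, version 1.17.8) with a mean-variance trend and Benjamini-Hochberg adjustment over all models with RPKM of at least 1 in at least 2 libraries. These were 57568 models in the 12 extended hilum libraries of EH10 to EH50, and 59783 in the 18 libraries of the region comparison. Where replicates are technical, p-values measure only that spread. The procedure was tested on simulated data. Names are best Arabidopsis hits in the file.

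Members and lists were chosen with earlier results of these data known. The named genes were, in each group, the 5 most abundant, those called between the isolines, and for each stage or region comparison the 3 largest called, with the called pathway genes. Others were chosen after their values were seen, among them Glyma.14G173500, Glyma.13G347600, Glyma.13G347700, the neighbours on chromosome 15, uncalled genes near the threshold and the single-library genes. The alternatives were deposited and equal-sum scaling, a pseudocount of 1, no filter, kit, a replicate block, limma-voom on recovered alignments, and leaving out each library.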

Additional observations from a re-analysis of the deposited data

How the results depend on the processing

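No call between the isolines and no stage call changed direction under any alternative. Of the region calls, Glyma.06G072700.1 and Glyma.15G184900.1 changed sign in UC7 with RPKM as deposited (-0.11 and -0.02). With RPKM as deposited, the isoline comparison called 23 TIFY genes and 15 lipoxygenases higher in UC413 for EH10, 6 and 8 for EH25, and 1 and 1 for EH50; 3 TIFY genes changed from EH10 to EH25 and 1 lipoxygenase from EH25 to EH50 in UC7; the region comparison called 14 TIFY genes and 6 lipoxygenases in UC7 and 1 and 1 in UC413. With an equal sum outside the rDNA region, EH10 had 9 lipoxygenases higher in UC413 and 1 lower, with 6 TIFY genes in UC413 at EH25, 3 TIFY genes and 1 lipoxygenase in UC413 at EH50, and the region comparison called 4 lipoxygenases in UC7 and 1 in UC413. With no filter, 3 TIFY genes were higher in UC413 at EH10, 0 at EH25, 1 lipoxygenase at EH50, and the region comparison called 3 lipoxygenases in UC7 and 1 in UC413. With the kit as a covariate, 3 TIFY genes were higher in UC413 at EH10 and 0 at EH25, 1 lipoxygenase was higher in UC7 at EH10, 2 lipoxygenases changed from EH25 to EH50 in UC413, and 2 differed by region in UC7. A pseudocount of 1 and limma-voom each gave 2 TIFY genes higher in UC7 at EH50, and limma-voom 1 TIFY gene changed from EH25 to EH50 in UC413. With stranded libraries only, chosen after seeing the data, 2 TIFY genes and 1 lipoxygenase were higher in UC413 at EH10, 0 and 2 at EH25, 0 TIFY genes were higher in UC7 at EH50, 0 lipoxygenases changed from EH25 to EH50 in UC413, and the region comparison called 0 TIFY genes in UC7, 0 in UC413 and 0 lipoxygenases in UC7. The cause of these moves was not tested, beyond the fewer libraries or the larger number of models that a setting uses.

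Replicates 1 and 2 share only a number across the isolines, and the correlation of their deviations was 0.193, 0.226 and 0.468 at EH10, EH25 and EH50. With a replicate block within each stage, all isoline calls remained, as did 7 of the 8 lipoxygenase calls from EH25 to EH50 in UC413. The block gave 2 lipoxygenases higher in UC7 at EH10 and 1 at EH50, 2 TIFY genes higher in UC413 at EH25 and 1 at EH50, 2 TIFY genes and 3 lipoxygenases changed from EH25 to EH50 in UC7, and 3 TIFY genes in UC413.

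Leaving out each library gave 0 to 6 TIFY genes and 0 to 5 lipoxygenases higher in UC413 for EH10, 0 to 4 and 0 to 6 for EH25, and 0 to 1 TIFY genes for EH50. Higher in UC7 there were 0 to 1 lipoxygenases at EH10, 0 to 1 TIFY genes and 0 to 4 lipoxygenases at EH25, and 0 to 3 and 0 to 1 at EH50. From EH10 to EH25 0 to 3 TIFY genes and 0 to 5 lipoxygenases changed in UC7. From EH25 to EH50 0 to 1 lipoxygenases changed in UC7, and 0 to 2 TIFY genes and 0 to 13 lipoxygenases in UC413. By region 1 to 7 TIFY genes and 0 to 2 lipoxygenases differed in UC7, and 0 to 4 and 0 to 4 in UC413. Where a group was left with 1 library, it was assumed to vary like the others.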

Other observations

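The UC7 EH25 libraries differed from each other in several members, chosen here after their values were seen. The JAZ1 homologs Glyma.09G071600.4 and Glyma.15G179600.1 had 25.0 and 18.7 scaled RPKM in replicate 1 and 4.33 and 7.58 in replicate 2, and the single WS25 library of UC7 had 20.1 and 16.1. The LOX2 homolog Glyma.20G053700.1 had 8.40 and 3.32, with 9.55 in WS25, and the LOX3 homolog Glyma.07G039900.1 had 18.5 and 7.86, with 15.7 in WS25. The embryo marker sum was 58.3 in replicate 1, 25.1 in replicate 2 and 78.5 in WS25. Its part in these values was not tested.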
